A study of Aspergillus nidulans with 48 samples.

Results

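In mycelia of *Aspergillus nidulans* grown without stress, 54 of the 10988 genes measured had low transcript levels when the transcription factor gene *atfA* was deleted, but not when *atfA* and *atfB* were deleted together. They were chosen by level alone. The mean RPKM (read counts scaled to gene length and to library size) of the untreated control was at least 3, the mean of Δ*atfA* was at most 1/3 of the control, and the mean of Δ*atfA*Δ*atfB* was at least 2/3 of the control. Of the 7288 genes at or above 3 RPKM in the control, 298 met the Δ*atfA* limit. Besides the 54 genes, 127 of these were also at or below 1/3 of the control in the double mutant (lost in both strains) and 117 lay in between.

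RNA was sequenced from mycelia and from conidia of 4 strains, the control THS30.3 (both genes present), Δ*atfB* (*atfB* deleted), Δ*atfA* (*atfA* deleted) and Δ*atfA*Δ*atfB* (both deleted), each grown on agar plates at 37 °C without treatment or with menadione sodium bisulfite (MSB), an agent that generates superoxide. Each of the 16 groups had 3 libraries, 48 in all. The MSB dose is labelled as 0.04 Mm, with the unit spelled so. The double mutant was recognised by its sample titles, since its genotype label names *atfB* in both places. The mycelia were collected before conidiophores formed, at ages that are not given per sample, and conidia were washed off the plates and filtered. All mycelial libraries belong to batch 3 of the labels, and conidial replicates 1 and 2 to batch 1 and replicate 3 to batch 2. The labels do not say whether a genotype was represented by more than 1 strain, and the study describes the libraries of a group as biological replicates.

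AtfA and AtfB are bZIP proteins of the ATF/CREB family, which bind DNA as dimers. AtfA is the ortholog of Atf1 of *Schizosaccharomyces pombe*, acts downstream of a stress-activated MAP kinase and is known for its part in stress tolerance of conidia. AtfB has been linked in aspergilli to stress responses and to secondary metabolism. A strain without both proteins keeps neither of their homodimers nor a heterodimer of the pair.

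Gene counts summed to 12974631 to 36314359 per mycelial library and to 8426329 to 24958904 per conidial library. In untreated mycelia *atfA* (AN2911) stood at 43.2 ± 5.72 RPKM (SD, n = 3) in the control, 11.3 ± 0.477 in Δ*atfA* and 5.45 ± 0.419 in Δ*atfA*Δ*atfB*. *atfB* (AN8643) was low in mycelia of every strain, at 3.28 ± 0.481 RPKM in the control, 0.771 ± 0.0981 in Δ*atfB* and 0.651 ± 0.232 in the double mutant, which makes it a weak check of that deletion. With MSB the mycelial levels were closer still, at 1.46 ± 0.0823 RPKM in the control, 0.822 ± 0.372 in Δ*atfB* and 1.22 ± 0.0849 in the double mutant, so that *atfB* reads do not show the deletion there. In conidia it fell to 2.25 ± 0.379 RPKM in the double mutant against 307 ± 54.8 in the control, whereas the libraries labelled Δ*atfB* kept 257 ± 50.9, and they are called so here. AN6798 was at 0.132 ± 0.0723 RPKM in untreated Δ*atfB* mycelia against 48.4 ± 3.51 in the control and 46.7 ± 0.674 in the double mutant. Since the double mutant kept it, a low AN6798 does not by itself show that *atfB* is deleted. In untreated conidia labelled Δ*atfB*, AN6798 was at 3.07 ± 1.09 RPKM against 34.9 ± 4.06 in the control. The mycelial and conidial libraries with that label thus shared a low AN6798, while the conidial ones kept *atfB* reads. Among MSB-treated mycelia of Δ*atfA*Δ*atfB*, replicate 2 had the highest value of the 3 libraries for 36 of the 54 genes. The summed RPKM of 14 genes of asexual development was 380 to 865 in untreated Δ*atfA* mycelia, 407 to 620 in the control and 364 to 527 in the double mutant, and lay between 98.1 and 215 in MSB-treated mycelia of these 3 strains. The RPKM sum of the Δ*atfA* libraries was the lowest of the 3 with MSB, at 98.1 to 110, against 169 to 215 in the control and 120 to 148 in the double mutant. The summed RPKM of 8 genes of sexual development was 409 to 519 in untreated Δ*atfA* mycelia, 549 to 621 in the control and 482 to 543 in the double mutant. With MSB it was 263 to 288, 356 to 396 and 294 to 388, in the same order. The part of these sums in the results below was not tested. In conidia the asexual sum was 3230 in Δ*atfA* replicate 3 against 11200 and 11700 in the other 2 untreated Δ*atfA* libraries. Untreated control conidia ranged from 19400 to 23400. In bulk RNA, fewer cells of a kind and less RNA per cell cannot be told apart.

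The 54 genes covered a wide range of levels in untreated control mycelia, from 3.84 to 1281 RPKM, with a median of 32.6. Their Δ*atfA* means were 0.668% to 33.2% of the control (median 23.7%), and their Δ*atfA*Δ*atfB* means 67.5% to 262% (median 79.9%), with 15 genes above the control. These values chose the genes and are a description. Near the limits, AN1737 and AN1738 were just inside the control minimum at 3.84 and 3.93 RPKM, and AN1717 and AN1588 just outside at 2.83 and 2.57. AN6739 and AN7942 were just inside the Δ*atfA* limit at 33.2% and 32.9% of the control, and AN12088 and AN0539 just outside at 33.4% and 33.5%. AN6159 and AN4392 were just inside the double-mutant limit at 67.5% and 67.6% of the control, with AN4807 and AN6046 just outside at 66.1% and 65.3%. Some genes passed that limit through 1 library. AN8994 was at 4.41, 14.5 and 2.03 RPKM in the untreated double mutant, against a control mean of 8.25. AN3585 and AN4324 were likewise below the limit in replicates 1 and 3 and above it in replicate 2. In untreated Δ*atfB* mycelia, which the choice did not use but which are set here against the same control libraries, the means ran from 31.3% to 206% of the control with a median of 88.2%. Of the 54 genes, 12 were below 2/3 and 3 above 1.5 times the control in Δ*atfB*. AN6940 was the only gene at or below 1/3, with 2.30, 3.53 and 3.03 RPKM in the 3 Δ*atfB* libraries and 8.40, 9.89 and 9.97 in the control.

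**Figure D1:**
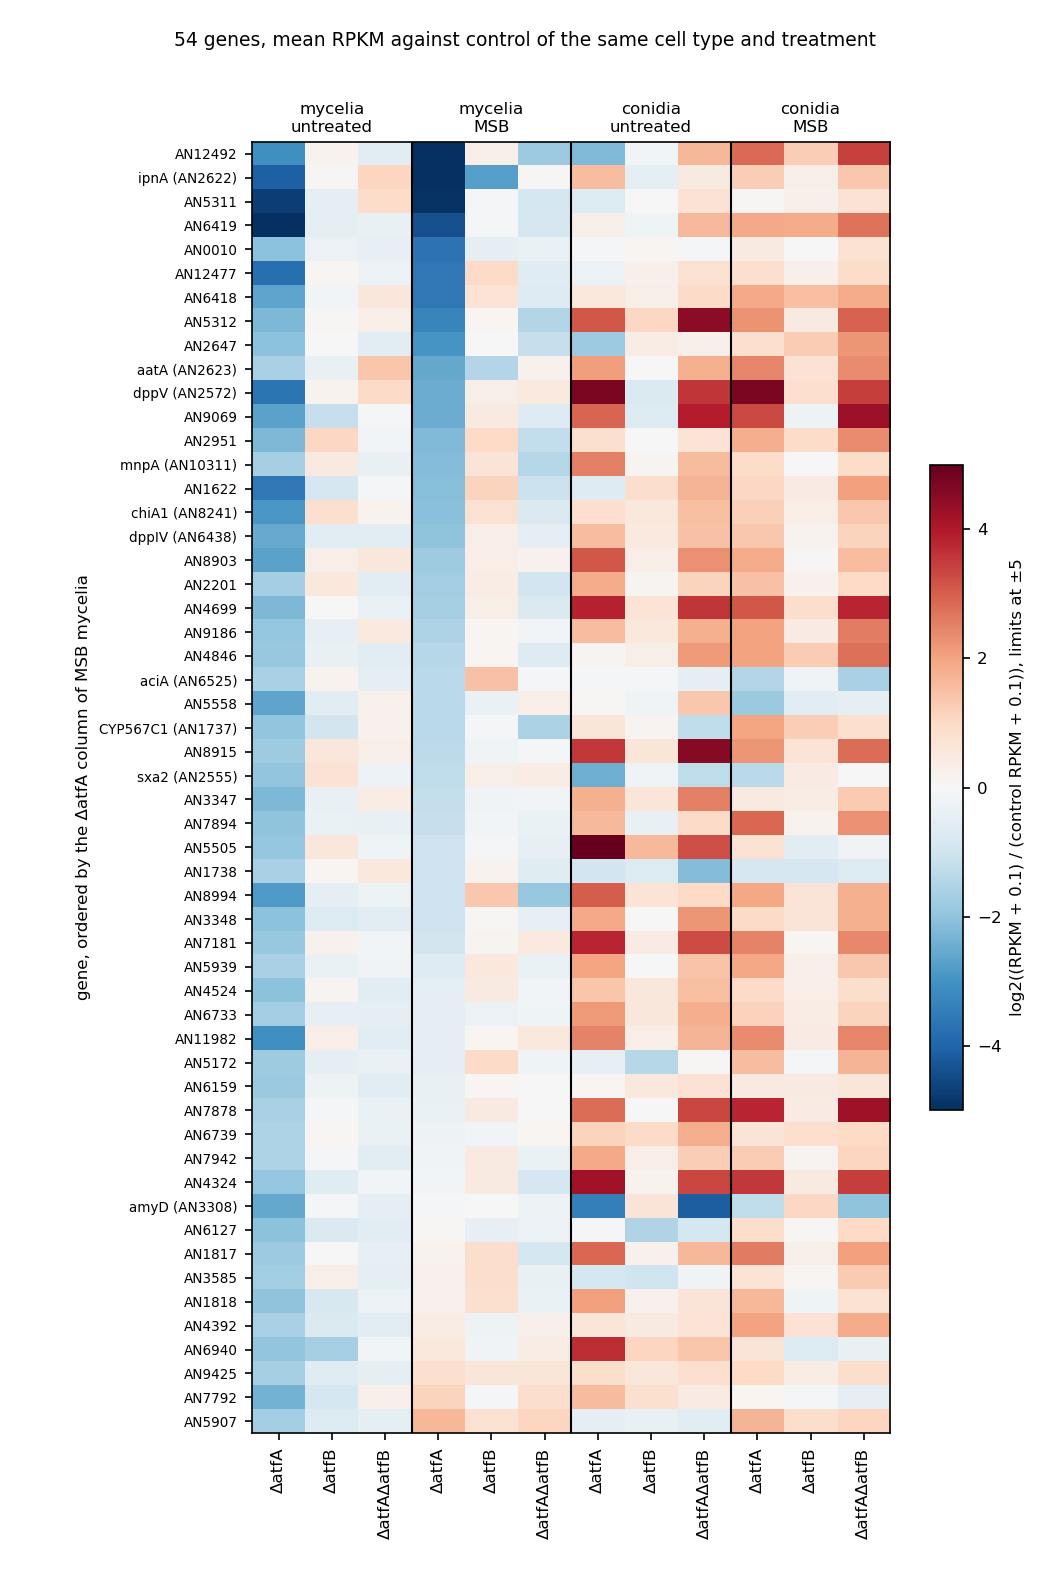
Each row is one of the 54 genes and each column a mutant, the colour giving log2 of its mean RPKM plus 0.1 over the control's mean plus 0.1 in the same cell type and treatment (3 libraries a group, limits at 5 on either side). The first column is blue throughout because the genes were chosen for it, the fourth (Δ*atfA*, MSB-treated mycelia) is blue in most rows, and the 2 conidial Δ*atfA* columns are red in most rows. RPKM are scaled by library totals alone, which shifts the conidial columns of strains without *atfA* towards red relative to the fitted changes.

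Names for 10 of the genes came from the supplementary gene lists or from RefSeq (assembly ASM1142v1), in which 51 of the 54 were found. *ipnA* (AN2622, isopenicillin-N synthase) and *aatA* (AN2623, isopenicillin-N acyltransferase) encode successive enzymes of penicillin biosynthesis. *mnpA* (AN10311) encodes a putative hyphal cell wall mannoprotein and *chiA1* (AN8241) a chitinase. *dppIV* (AN6438), *dppV* (AN2572) and *sxa2* (AN2555) are peptidase genes, the first 2 named for dipeptidyl-peptidases and the last annotated for carboxypeptidase activity of its orthologs. Metabolic genes were *amyD* (AN3308, putative alpha-amylase), *aciA* (AN6525, putative formate dehydrogenase) and *CYP567C1* (AN1737, putative cytochrome P450). Further annotated genes without a short name were AN5907 (putative ribose-5-phosphate isomerase), AN7878 (putative branched chain amino acid aminotransferase, listed in the aspercryptin cluster), AN2951 (putative UDP-glucose 4-epimerase), AN12492 (predicted GTPase domain) and the predicted transcription factors AN4324 and AN7942. Most of the others carried no annotation in the tables used here.

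In the RefSeq gene order, 14 of the 51 placed genes lay within 3 genes of another of them, in 7 pairs, a share of 27.5%. The share was 20.8% for the genes lost in both strains and 21.6% for those in between. The pairs were AN1737 and AN1738, AN1817 and AN1818, AN2622 and AN2623, AN3347 and AN3348, AN5311 and AN5312, AN6418 and AN6419, and AN8915 and AN9425. AN1738, AN5312 and AN6419 belong to 1 family of paralogs, for which 24 genes were measured and 10 reached 3 RPKM in the untreated control, and each of the 3 sat in a different pair. Since the use of multiply aligned reads is not stated, counts of near-identical family members are uncertain.

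The penicillin genes *ipnA* and *aatA* were low in Δ*atfA* and high in the double mutant. In untreated mycelia *ipnA* stood at 13.6, 11.9 and 15.6 RPKM in the control, 0.688, 0.670 and 0.780 in Δ*atfA* and 23.9, 30.9 and 31.04 in Δ*atfA*Δ*atfB*. *aatA* stood at 7.05, 8.13 and 9.19 RPKM in the control, 2.69, 2.41 and 2.59 in Δ*atfA* and 17.2, 24.5 and 22.2 in Δ*atfA*Δ*atfB*. For both genes every double-mutant library lay above every control library, and every Δ*atfA* library below. These libraries chose the genes, and Δ*atfA* lay below both other strains without overlap for all 54 of them. MSB-treated mycelia, whose libraries were not used to choose the genes, gave a test. There *ipnA* was at 11.6, 24.7 and 14.2 RPKM in the control, 0.620, 0.236 and 0.208 in Δ*atfA*, 2.56, 3.19 and 1.5 in Δ*atfB* and 6.77, 35.7 and 10.51 in Δ*atfA*Δ*atfB*. *ipnA* was thus lower in every library of either single mutant than in any control library, while the double mutant overlapped the control with 1 library far above the other 2. On the log2 scale, with the standard error of the edgeR quasi-likelihood fit after the ± sign here and below, *ipnA* differed from the control by -5.68 ± 0.63, adjusted p = 9.06e-07, in Δ*atfA*. In Δ*atfB* the difference was -2.86 ± 0.47, adjusted p = 3.94e-04. It was higher in the double mutant than in Δ*atfA* by 5.74 ± 0.63, adjusted p = 7.24e-06. *aatA* followed with -2.63 ± 0.35, adjusted p = 8.44e-06 in Δ*atfA*, -1.52 ± 0.32, adjusted p = 0.00242 in Δ*atfB*, and 2.83 ± 0.35, adjusted p = 2.10e-05 for the double mutant over Δ*atfA*. *acvA* (AN2621), which encodes the first enzyme of the pathway and was not among the 54 genes, was nearly silent, at 0.223 ± 0.116 RPKM in MSB-treated control mycelia, 0.00227 ± 0.00393 in Δ*atfA* and 0.281 ± 0.252 in the double mutant. The Δ*atfA* value rested on 1 read in 3 libraries. *acvA* reached 0.5 RPKM in mycelia of the double mutant only, so that no test is given for it.

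In MSB-treated mycelia most of the 54 genes were again lower in Δ*atfA* than in the control, and fewer were higher in the double mutant than in Δ*atfA*. A gene was called at an adjusted p below 0.05 (Benjamini-Hochberg over all genes tested) and a change over 2-fold. Δ*atfA* had 32 of the 54 genes lower and 2 higher than the control, against 6.04% and 2.77% of the 9199 genes tested, with a median log2 fold change of -1.29 (-0.01 over all genes tested). Δ*atfA*Δ*atfB* had 21 genes higher than Δ*atfA*, against 2.16% of genes tested, and 22 called in either direction, against 2.66%, with a median of 0.80 (0.00 over all). Against the control, the double mutant had 9 genes lower and 1 higher, with 3.16% and 1.55% of all genes (median -0.35). For the 127 genes lost in both strains the corresponding counts were 89 lower in Δ*atfA*, 9 higher in the double mutant than in Δ*atfA*, and 76 lower in the double mutant than in the control. For the 117 genes in between they were 59, 40 and 14, in the same order. A higher level in the double mutant than in Δ*atfA* was called for 34.2% of these and 38.9% of the 54 genes, and was not particular to the 54. The 3 contrasts share libraries, and their counts stand side by side without a test of overlap.

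The whole pattern, lower in Δ*atfA*, higher in the double mutant than in Δ*atfA* and not called lower in the double mutant than in the control, was called for 18 of the 54 genes and for 1.59% of all genes tested. It was called for 6 of the 127 genes lost in both strains and for 33 of the 117 in between. A gene not called lower is not shown to equal the control. Without replicate 2 of the MSB-treated double mutant, 10 of the 54 genes had the whole pattern, 17 were higher in the double mutant than in Δ*atfA*, and 14 were lower in the double mutant than in the control. Without replicate 1 of that group, 5 genes were lower in the double mutant than in the control.

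**Figure D2:**
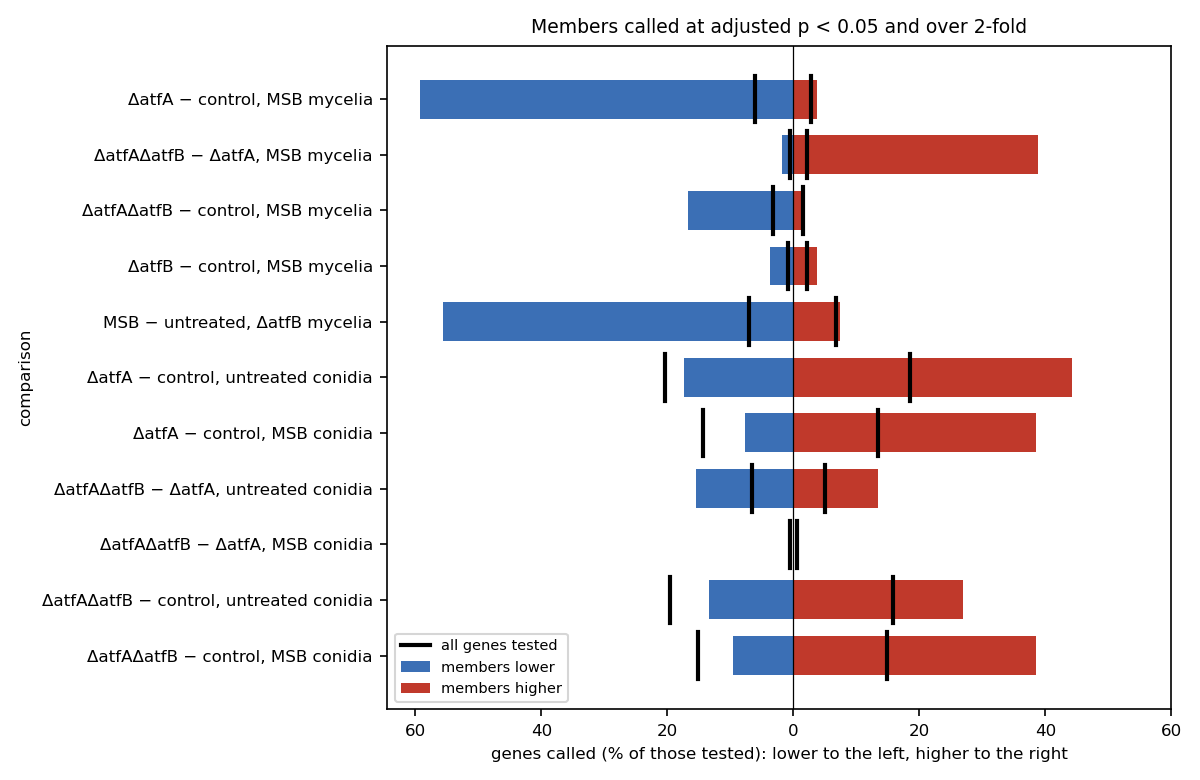
Bars give the percentage of the chosen genes called lower (left) or higher (right) in each comparison, of 54 tested in mycelia and 52 in conidia, and black marks the percentage among all genes tested. Calls ran to the lower side for Δ*atfA* in MSB-treated mycelia (32 genes) and to the higher side for Δ*atfA* in untreated conidia (23 genes).

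Several of the larger differences in MSB-treated mycelia were in neighbouring or paralogous genes without an annotated role. AN5311 was at 6.45, 9.85 and 5.80 RPKM in the control, 0.229, 0.160 and 0.0352 in Δ*atfA* and 1.12, 8.20 and 2.52 in Δ*atfA*Δ*atfB*. The Δ*atfA* libraries lay below all others, and the double mutant ranged from below the control to within it. AN5311 differed by -5.81 ± 0.72, adjusted p = 3.61e-06 in Δ*atfA* and by 4.86 ± 0.77, adjusted p = 3.36e-04 between the double mutant and Δ*atfA*. Its neighbour AN5312 changed by -4.32 ± 0.70 in Δ*atfA*, to between 0.0599 and 0.102 RPKM. AN5312 was at 1.43, 2.89 and 0.896 RPKM in the control and 0.421, 1.06 and 0.219 in the double mutant. It was called lower in the double mutant than in the control (-1.69 ± 0.47, adjusted p = 0.0158), although the libraries overlapped.

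AN6419, another member of that paralog family, was almost absent from Δ*atfA*. Untreated mycelia held 22.7, 27.4 and 22.4 RPKM in the control, 0.107, 0.307 and 0.0709 in Δ*atfA* and 21.5, 16.1 and 17.7 in Δ*atfA*Δ*atfB*. With MSB the values were 2.67, 4.45 and 2.35 RPKM in the control, 0.0589, 0 and 0.109 in Δ*atfA* and 0.783, 3.52 and 0.916 in the double mutant, so that all Δ*atfA* libraries stayed apart from both other strains. The log2 fold changes were -5.67 ± 0.72, adjusted p = 4.54e-06 for Δ*atfA* and 4.75 ± 0.77, adjusted p = 4.36e-04 for the double mutant over Δ*atfA*. The adjacent AN6418 changed in the same directions, by -3.90 ± 0.36 and 3.21 ± 0.37. The pair AN1737 (*CYP567C1*) and AN1738 was lower in Δ*atfA* (-1.76 ± 0.53, adjusted p = 0.0134 and -1.28 ± 0.35, adjusted p = 0.0206), but neither gene was called higher in the double mutant than in Δ*atfA*. Both were at or below 1.38 RPKM in every MSB-treated mycelial library of these 3 strains.

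AN12492, with its predicted GTPase domain, was near 0 in Δ*atfA* under MSB. It was at 7.51, 6.54 and 6.39 RPKM in the control, 7.55, 8.27 and 9.54 in Δ*atfB*, 0.0689, 0.0641 and 0.0849 in Δ*atfA* and 0.836, 3.06 and 1.69 in the double mutant. Δ*atfA*, the double mutant and the control did not overlap, with the double mutant in between. The log2 fold change was -6.50 ± 0.47, adjusted p = 3.86e-09 in Δ*atfA*, and the double mutant was higher than Δ*atfA* by 4.61 ± 0.53, adjusted p = 9.74e-06 and lower than the control (-1.90 ± 0.28, adjusted p = 6.46e-05). AN12477, for which no annotation was found, changed by -4.02 ± 0.51 in Δ*atfA* and was higher by 3.38 ± 0.52 in the double mutant than in Δ*atfA*. AN0010, a pseudogene in RefSeq, and AN2647 were likewise lower in Δ*atfA* (-3.82 ± 0.36 and -2.97 ± 0.18) and higher in the double mutant than in Δ*atfA* (3.48 ± 0.36 and 1.79 ± 0.18). AN2647 stayed below the control in the double mutant (-1.18 ± 0.16, adjusted p = 1.99e-05), and AN8994 was lower in the double mutant without a call in Δ*atfA* (-2.06 ± 0.70, adjusted p = 0.0457).

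All 3 peptidase genes had the whole pattern under MSB. *dppV* was at 39.4, 44.6 and 36.8 RPKM in untreated control mycelia, 2.61, 3.66 and 3.04 in Δ*atfA* and 82.5, 84.4 and 66.7 in the double mutant. Under MSB it was at 3.96, 8.22 and 3.55 RPKM in the control, 1.18, 0.799 and 0.573 in Δ*atfA* and 3.45, 13.2 and 5.35 in the double mutant, with the Δ*atfA* libraries below all others. *dppV* changed by -2.68 ± 0.48, adjusted p = 2.39e-04 in Δ*atfA* and by 3.14 ± 0.47, adjusted p = 1.85e-04 from Δ*atfA* to the double mutant. *dppIV* and *sxa2* changed less, by -2.06 ± 0.29 and -1.30 ± 0.35 in Δ*atfA*, and by 1.58 ± 0.29 and 1.66 ± 0.34 from Δ*atfA* to the double mutant.

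*mnpA*, a cell wall gene, was the most abundant of the 54 genes. It was at 1496, 1206 and 1142 RPKM in untreated control mycelia, 496, 441 and 275 in Δ*atfA*, 1927, 1592 and 1673 in Δ*atfB* and 1066, 899 and 1024 in Δ*atfA*Δ*atfB*. With MSB it was at 239.5, 359.5 and 213 RPKM in the control, 85.3, 34.6 and 58.2 in Δ*atfA* and 102.7, 106.3 and 91.3 in the double mutant. Under MSB the double mutant thus lay below every control library, and the gene was called lower there (-1.44 ± 0.25, adjusted p = 3.59e-04) as in Δ*atfA* (-2.19 ± 0.26, adjusted p = 2.40e-06), with no call between the 2 mutants (0.75 ± 0.26, adjusted p = 0.0791). *chiA1* was lower in Δ*atfA* (-2.18 ± 0.23) and higher in the double mutant than in Δ*atfA* (1.41 ± 0.23).

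Of the 4 carbohydrate-active enzyme genes, 2 kept the pattern under MSB. AN9069 was at 28.3, 33.1 and 30.2 RPKM in the control, 6.20, 5.91 and 3.99 in Δ*atfA* and 13.3, 27.99 and 17.4 in the double mutant, with no overlap between Δ*atfA* and either strain. Its log2 fold change was -2.52 ± 0.27, adjusted p = 5.17e-07 in Δ*atfA* and 1.86 ± 0.26, adjusted p = 9.93e-05 for the double mutant over Δ*atfA*, and *chiA1* was the other. *amyD*, at 34.1, 35.4 and 33.2 RPKM in untreated control mycelia and 5.84, 5.503 and 5.81 in untreated Δ*atfA*, was at 21.8, 24.2 and 18.1 and 18.4, 22.7 and 18.5 under MSB, where the strains overlapped (-0.11 ± 0.10, adjusted p = 0.446). AN1818, a xylanase gene, was not called in either contrast. Over the whole list of these enzymes, 34 of 291 genes tested were lower and 8 higher in Δ*atfA* than in the control under MSB, and 14 were higher and 2 lower in the double mutant than in Δ*atfA*.

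Not every gene stayed low in Δ*atfA* under MSB. AN5907 was at 525, 554 and 477 RPKM in untreated control mycelia and 136, 183 and 142 in untreated Δ*atfA*. Under MSB it was at 78.5, 93.8 and 53.5 RPKM in the control, 212, 274 and 225 in Δ*atfA* and 199, 129 and 146 in the double mutant. Under MSB every Δ*atfA* library thus lay above every control library. The opposite order without treatment was fixed by the choice of the genes, and the dependence on MSB was not tested. With MSB, AN5907 was higher than in the control by 1.66 ± 0.21, adjusted p = 4.12e-06 in Δ*atfA* and by 1.06 ± 0.20, adjusted p = 9.16e-04 in the double mutant. AN7792 was the other gene called higher in Δ*atfA* (1.11 ± 0.16, adjusted p = 1.48e-05). AN1817 was the 1 gene lower in the double mutant than in Δ*atfA* (-1.05 ± 0.27, adjusted p = 0.0193). The predicted transcription factors AN4324 and AN7942 were not called in either contrast. Over the list of transcription factor genes, 17 of 326 tested were lower and 3 higher in Δ*atfA* under MSB.

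**Figure D3:**
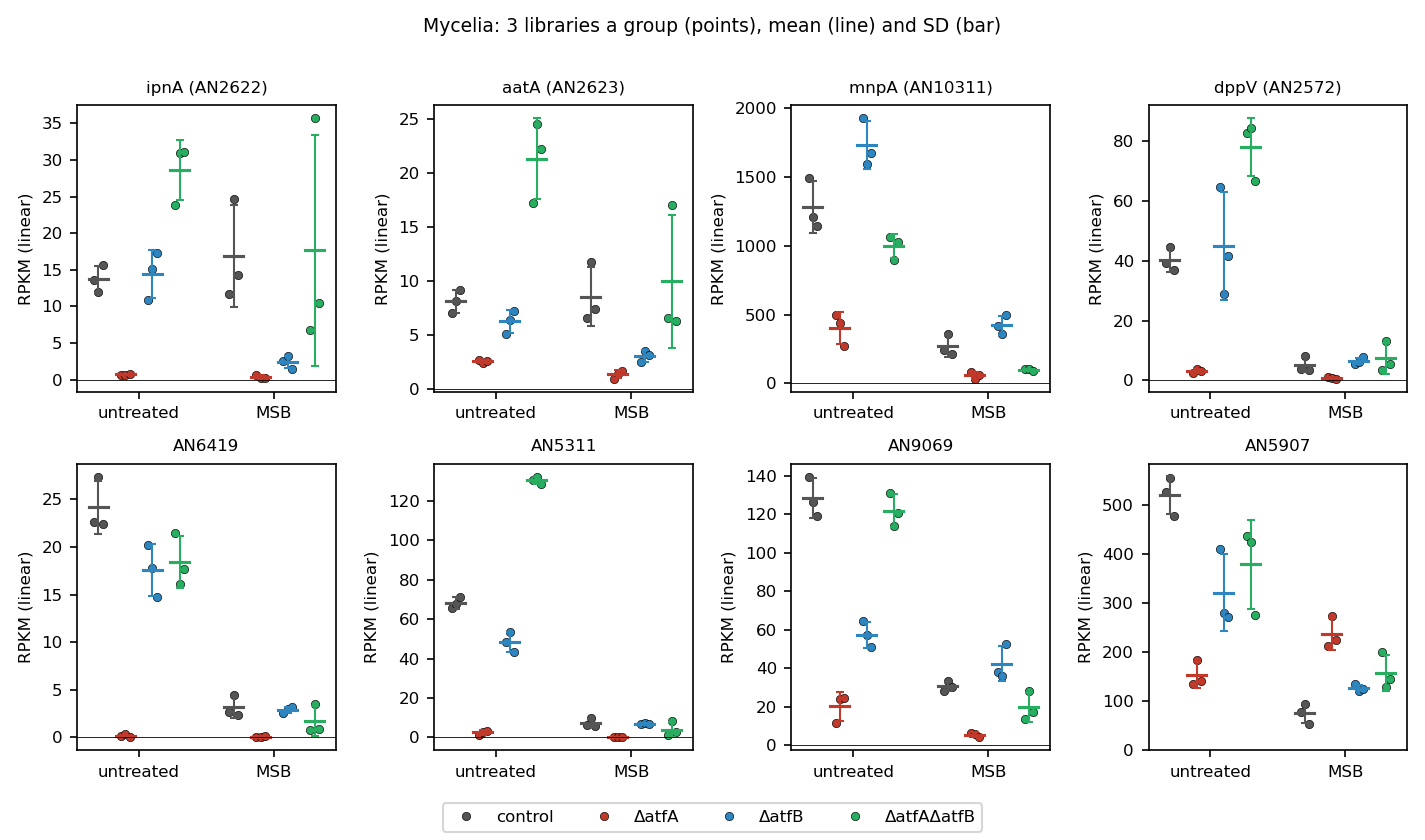
RPKM of 8 of the genes in mycelia on linear axes, with 3 libraries a group as points, the mean as a line and the SD as a bar, by strain and treatment. *ipnA* in MSB-treated Δ*atfA*Δ*atfB* spread from 6.77 to 35.7 RPKM. AN5907, chosen like the others for a low level in untreated Δ*atfA*, was highest in Δ*atfA* with MSB.

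In MSB-treated mycelia labelled Δ*atfB*, in which *atfB* reads do not show the deletion, 4 of the 54 genes differed from the control, among them both penicillin genes. Δ*atfB* had 2 genes lower and 2 higher than the control, against 0.913% and 2.14% of all genes tested, with a median log2 fold change of 0.21 (0.00 over all). The 2 lower genes were *ipnA* and *aatA*, given above. The 2 higher were *aciA* (1.42 ± 0.34, adjusted p = 0.0066) and AN1622 (1.20 ± 0.33, adjusted p = 0.0155). *aciA* was at 90.2, 53.8 and 56.6 RPKM in the control and 206, 158 and 185 in Δ*atfB*, without overlap. Without replicate 2 of the MSB-treated control, 9 genes were called.

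The genes as a group were lower under MSB. In the control, whose untreated libraries were used in the choice, the MSB mean was below 50% of the untreated mean for 40 of the 54 genes and above it for 7, with a median of 28.6%. The test was made in Δ*atfB*, whose libraries were not. There MSB lowered 30 of the 54 genes and raised 4, against 7.03% and 6.70% of genes tested, with a median log2 fold change of -1.11 (-0.01 over all). The decrease was not particular to the 54 genes. Of the 117 genes in between, 62 were lowered and 3 raised (median -1.15), and of the 127 lost in both strains 50 and 14 (median -0.64). AN8915 went from 107, 70.9 and 76.4 to 9.34, 9.85 and 14.1 RPKM (-2.89 ± 0.25, adjusted p = 1.37e-08). AN5505 (-3.17 ± 0.27), AN5312 (-2.88 ± 0.37), *sxa2* (-2.82 ± 0.30) and AN5311 (-2.75 ± 0.37) were among the 5 largest decreases, with AN8915. *ipnA* (-2.56 ± 0.47), *mnpA* (-1.99 ± 0.25) and *chiA1* (-2.35 ± 0.20) were also lowered. The 4 raised genes were AN6940 (2.57 ± 0.19), *aciA* (1.70 ± 0.34), AN9425 (1.41 ± 0.18) and AN4324 (1.25 ± 0.42). The summed RPKM of the 14 asexual genes moved with this contrast, from 736 to 1560 in untreated Δ*atfB* mycelia to 305 to 385 with MSB, and its part in the result was not tested.

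In conidia more of the genes were higher than lower in Δ*atfA*. Of the 54 genes, 52 passed the filter of 0.5 RPKM in 3 libraries, AN0010 and AN6418 being too low. For 5 of the 52 (AN1622, AN1738, AN2201, AN6419 and AN9186) fewer than 3 libraries of the control and those labelled Δ*atfB* reached it, so that they were tested only with the help of libraries lacking *atfA*. Without these 5 genes 21 were higher in untreated and 17 in MSB-treated Δ*atfA* conidia, and the counts for the double mutant below fall by up to 3. The median of the group means was 5.83 RPKM in the untreated control, 17.8 in Δ*atfA* and 12.9 in Δ*atfA*Δ*atfB*. RPKM are scaled by library totals alone, whereas the tests also allow for composition, so that in conidia a ratio of RPKM between Δ*atfA* or the double mutant and the control exceeds the fitted fold change.

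Against untreated control conidia, Δ*atfA* had 23 of the 52 genes higher and 9 lower, with 18.5% and 20.4% of the 10143 genes tested. The median log2 fold change was 0.80 (0.04 over all). In MSB-treated conidia 20 were higher and 4 lower, with 13.5% and 14.4% of genes tested (median 0.87, against 0.08). Of the 127 genes lost in both strains, 82.7% were lower and 6.30% higher in untreated Δ*atfA* conidia. The genes in between stood closer to the 54, with 38 of 115 tested higher and 28 lower without treatment, and 53 higher and 20 lower with MSB. Developmental markers moved with this contrast. In untreated Δ*atfA* conidia 5 of 8 genes of sexual development were higher and 1 lower, with summed levels of 2030 to 3240 RPKM against 1190 to 3470 in the control, and 7 of the 14 asexual genes were lower and 4 higher. With MSB these counts were 2 higher and 1 lower of the sexual genes, and 5 lower and 2 higher of the asexual ones. None of either list had a mean under 1 RPKM in Δ*atfA* conidia. Their part in the result was not tested. The same direction in both treatments was called for 15 higher genes and for 2 lower ones, *sxa2* and *amyD*. The share of all genes called in both treatments is not given here, so this count is not shown to be particular to the 54 genes. Replicate 3 of Δ*atfA* conidia, which belonged to batch 2 and stood apart in asexual gene levels, had little effect on these counts. Without it 22 genes were higher in untreated and 18 in MSB-treated conidia, and within batch 1 alone 20 and 18.

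*dppV* was among the clearest. It was at 5.05, 3.43 and 3.42 RPKM in the untreated control, 117, 122 and 80.8 in Δ*atfA* and 62.1, 31.5 and 51.2 in Δ*atfA*Δ*atfB*. Both mutants lay above every control library. The log2 fold change was 3.95 ± 0.71, adjusted p = 8.84e-05 in Δ*atfA* and 2.77 ± 0.69, adjusted p = 0.00176 in the double mutant. With MSB the Δ*atfA* values were 19.8, 22.9 and 171 RPKM, the last of them in batch 2, and the control values 3.34, 3.48 and 1.05 (4.09 ± 0.75, adjusted p = 1.75e-04).

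AN9069, a carbohydrate-active enzyme gene, was at 77.9, 45.2 and 37.9 RPKM in conidia of the untreated control, 444, 449.5 and 312 in Δ*atfA* and 889.5, 781 and 778 in Δ*atfA*Δ*atfB*. Here the double mutant was the highest strain, without overlap, and was above the control by 3.05 ± 0.43, adjusted p = 6.27e-06 and, with MSB, by 3.52 ± 0.45, adjusted p = 2.30e-06. AN4699, one of the most abundant of the genes in control mycelia, was at 9.60, 10.4 and 11.7 RPKM in MSB-treated control conidia, 71.3, 59.97 and 140.4 in Δ*atfA* and 145, 181 and 124 in the double mutant. Both mutants were higher than the control, AN4699 changing by 2.41 ± 0.41, adjusted p = 7.13e-05 in Δ*atfA* and 3.14 ± 0.42, adjusted p = 4.33e-06 in the double mutant. *aatA* was at 3.43, 3.23 and 1.58 RPKM in the control with MSB, 13.5, 11.7 and 20.99 in Δ*atfA* and 15.2, 12.1 and 16.9 in Δ*atfA*Δ*atfB*, again with both mutants above it (1.84 ± 0.38, adjusted p = 4.50e-04 and 1.75 ± 0.37, adjusted p = 6.68e-04).

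AN4324, a predicted transcription factor, was in conidia at 34, 30.97 and 25.1 RPKM in the untreated control, 471, 452 and 727 in Δ*atfA* and 299.5, 325 and 302 in the double mutant. It was higher in Δ*atfA* by 3.39 ± 0.23, adjusted p = 2.35e-10 and, with MSB, by 2.87 ± 0.22, adjusted p = 2.71e-09. Further genes higher in Δ*atfA* conidia without treatment were AN5505 (5.40 ± 0.67), AN4699 (3.04 ± 0.42), AN6940 (2.89 ± 0.38), AN8915 (2.82 ± 0.34), AN9069 (2.09 ± 0.42), AN5312 (2.36 ± 0.38) and *aatA* (1.32 ± 0.36). *mnpA*, whose product belongs to the hyphal wall, was at 429, 227 and 175 RPKM in control conidia without treatment, against 1924, 1335 and 1447 in Δ*atfA* (1.71 ± 0.44, adjusted p = 0.0025). It was not called in MSB-treated conidia, where Δ*atfA* had 346, 325 and 1108 RPKM.

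Some genes were low in conidia of Δ*atfA*. *amyD* was at 18.1, 18.6 and 19.7 RPKM in the untreated control, 1.24, 1.32 and 2.51 in Δ*atfA* and 0.605, 1.29 and 1.10 in Δ*atfA*Δ*atfB*. Neither mutant reached the control, and the double mutant was not called higher than Δ*atfA*. The log2 fold change of *amyD* was -4.36 ± 0.37, adjusted p = 7.80e-09 in Δ*atfA* and -5.07 ± 0.39, adjusted p = 1.64e-09 in the double mutant. *sxa2* was at 7.34, 5.42 and 5.86 RPKM in the control, 0.827, 0.779 and 1.55 in Δ*atfA* and 2.43, 2.15 and 2.88 in the double mutant, which was above Δ*atfA* (1.17 ± 0.36, adjusted p = 0.0249) but below the control (-2.18 ± 0.35, adjusted p = 2.96e-05). AN12492, AN2647, AN3585, AN5311, AN5907, AN5172 and AN12477 were the other 7 lower genes without treatment. AN12492 and AN2647 were below 1.25 RPKM in all control and Δ*atfA* libraries of untreated conidia. With MSB the lower genes were AN5558 (-2.45 ± 0.41), *aciA* (-2.16 ± 0.34), *sxa2* and *amyD*. *aciA* was at 784, 738 and 710.2 RPKM in MSB-treated control conidia, 255, 266 and 278 in Δ*atfA* and 236, 233 and 262 in the double mutant. It was low in both mutants, with no overlap with the control. AN5907 was called in opposite directions in the 2 treatments (-1.29 ± 0.26, adjusted p = 3.04e-04 and, with MSB, 1.04 ± 0.26, adjusted p = 0.00282).

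**Figure D4:**
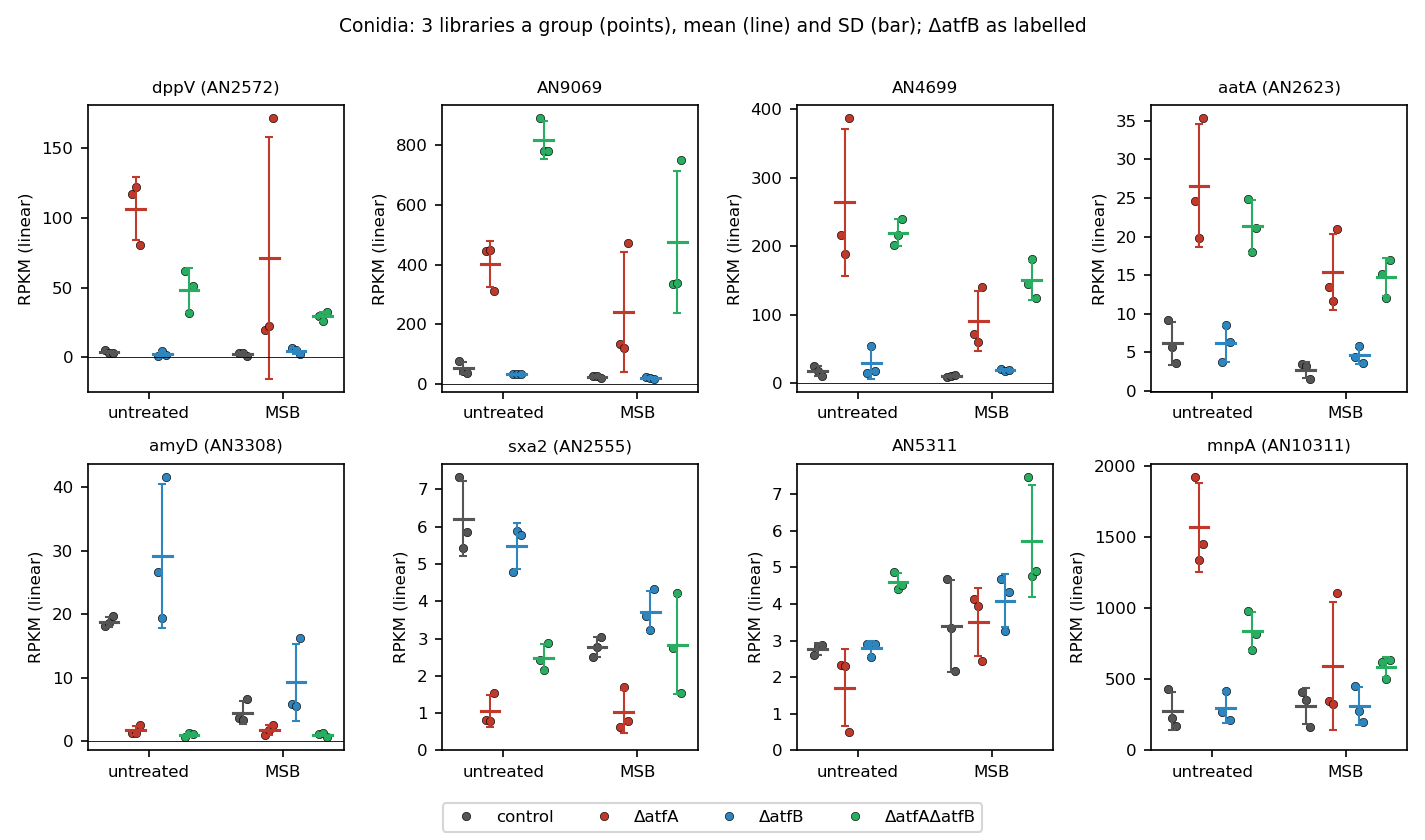
RPKM of 8 of the genes in conidia on linear axes, with 3 libraries a group as points, the mean as a line and the SD as a bar, Δ*atfB* standing for the libraries so labelled. The points of both strains without *atfA* lie, for *dppV*, AN9069, AN4699 and *aatA*, above those of the control in the same treatment (in untreated conidia *aatA* was not called in the double mutant), and *amyD* was lower in both mutants, at 0.605 to 2.58 RPKM in either treatment.

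Between the double mutant and Δ*atfA*, the genes differed in both directions in conidia. In untreated conidia 7 of the 52 genes were higher and 8 lower in Δ*atfA*Δ*atfB* than in Δ*atfA*, against 4.98% and 6.49% of genes tested (median -0.18). The higher genes included AN12492 (4.73 ± 1.06, adjusted p = 0.00496), AN4846 (2.05 ± 0.59, adjusted p = 0.0176), AN5311 (1.47 ± 0.38, adjusted p = 0.0104) and AN5312 (1.42 ± 0.33, adjusted p = 0.00604). AN1622 was also called, but it passed the filter through libraries of the double mutant. Without replicate 3 of the untreated double mutant 3 genes were higher. The lower genes included AN5505 (-2.83 ± 0.55), AN6940 (-2.34 ± 0.36), *CYP567C1* (-2.27 ± 0.39) and *ipnA* (-1.19 ± 0.34). In MSB-treated conidia no gene was called higher or lower by the edgeR quasi-likelihood test, against 0.651% and 0.463% of all genes, while 11 of the 52 had an unadjusted p below 0.05 and DESeq2 called 3. For none of the 52 genes did the difference between the 2 mutants depend on MSB at an adjusted p below 0.05 in edgeR, against 0.237% of all genes tested. At an unadjusted p below 0.05 there were 8 of the 52, beside 1679 of all 10143 genes, a similar share, and DESeq2 called 1 of the 52. Without replicate 3 of MSB-treated Δ*atfA* conidia, 8 genes passed that interaction test, and 7 passed within batch 1 alone. The shares of all genes passing in these settings are not given here, so no dependence on MSB particular to the 52 genes is shown.

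Compared with the control, Δ*atfA*Δ*atfB* conidia had 14 of the 52 genes higher and 7 lower without treatment, against 15.8% and 19.6% of genes tested, and 20 higher and 5 lower with MSB, against 14.9% and 15.1%. Without treatment the genes with the largest decreases were *amyD*, AN1738 (-4.29 ± 1.08, adjusted p = 0.00205), *CYP567C1* (-2.42 ± 0.41, adjusted p = 4.09e-05), *sxa2* and AN6127 (-1.75 ± 0.38, adjusted p = 6.28e-04). AN1738 was below 0.5 RPKM in every library of these 2 groups. With MSB the 5 lower genes were *amyD*, *aciA*, AN7792, AN6940 and AN5558. Without replicate 1 or replicate 2 of the MSB-treated control 3 genes were lower.

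In conidial libraries labelled Δ*atfB*, the share of these genes called was near that of all genes. Without treatment 2 of the 52 genes (3.85%) were lower, AN6127 (-1.89 ± 0.39, adjusted p = 0.00374) and AN5172 (-1.79 ± 0.44, adjusted p = 0.0112), against 3.41% of all genes, and none were higher, against 1.06%. Within batch 1 alone 7 were called, and the share of all genes called there is not given. Leaving out replicate 1 of either group left 1. With MSB edgeR called none of the 52, against 1.42% of all genes lower and 0.552% higher, with 6 at an unadjusted p below 0.05, and DESeq2 called none. Of the genes measured here, no member of the sterigmatocystin cluster was among the 54, and 1 of its 26 genes reached 3 RPKM in untreated control mycelia, at 12.1 RPKM.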

How the data were processed

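Total RNA from lyophilised mycelia and conidia was sequenced after TruSeq library preparation. The authors deposited raw read counts per gene and RPKM values for all 48 libraries. HISAT2 2.1.0, FastQC, edgeR and DESeq2 1.24.0 are named in the submitters' processing notes, with genes of strain FGSC A4. The counter, its use of strand and the handling of multiply aligned reads are not given in the sources used here. RPKM recomputed from the deposited counts and gene lengths differed by at most 3.12e-14 in relative terms. The genes were chosen on the deposited RPKM with no library rescaling. Members and gene lists were chosen with earlier results of these data known.

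Tests used the deposited counts in edgeR 4.0.16 (R 4.3.3; quasi-likelihood), fitted separately for mycelia and conidia over all 8 groups of each, with DESeq2-type (RLE) size factors and a filter of 0.5 RPKM in at least 3 libraries. The conidial fit had a batch term. p-values were adjusted by Benjamini-Hochberg over all genes tested, and a gene was called past an adjusted p of 0.05 if it also changed by more than 1 on the log2 scale (for the interaction, the adjusted p alone). DESeq2 1.42.0, TMM scaling, no filter, batch 1 alone, a replicate block and leaving out each library were alternatives. On simulated data with 200 changed genes (Δ*atfA* against control with MSB, adjusted p below 0.05), the mycelial fit over 9199 genes recovered 91.0% of 2-fold and 100% of 4-fold changes, with 5.45% of its calls false, and the conidial fit over 10143 genes 88.0% and 100%, with 3.09% false. The simulation gave every gene the same spread, held no batch effect and changed only genes above a minimum count. Recovery in it did not ask for the fold limit of a call, so these shares are not rates for the calls reported here. Comparisons among untreated mycelia of the control, Δ*atfA* and the double mutant, which chose the genes, and their MSB responses were not tested.

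Genes were named if they had a published or RefSeq name, were among the 6 highest in the control or the 6 lowest in Δ*atfA* relative to it, shared a list or neighbourhood with another, were among up to 5 largest changes of a comparison, or lay at a limit of the choice. Others are named as chosen after their values were seen. Summaries used Python 3.11.15 and pandas 2.3.3. RefSeq (ASM1142v1) served for names and gene order only, since the build version of the files was not named. No sequences were used here. Depth differed between libraries as given above, and counting error is widest for genes under 1 RPKM.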

Additional observations from a re-analysis of the deposited data

Results flagged for a closer look

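With MSB, 12 of the 54 genes were called lower in Δ*atfA* mycelia and higher in Δ*atfA* conidia than in the control. AN0010 and AN6418 were not tested in conidia. Of all genes tested, 6.04% were lower in these mycelia and 13.5% higher in these conidia, and the share with both calls was not counted. For 9 of these the 3 Δ*atfA* libraries also lay apart from the 3 control libraries in both cell types, in RPKM rescaled by the factors of the fit. Further genes lay apart in this way without both calls, and the share of all genes lying apart is not given here. Of the genes in between in the double mutant, 59 of 117 were lower in MSB-treated Δ*atfA* mycelia. In MSB-treated Δ*atfA* conidia 53 of 115 of them were higher. A change of direction particular to the 54 genes was thus not shown. The difference between the cell types was not tested. *dppV* (AN2572) had a log2 fold change of 4.09 in conidia and -2.68 in mycelia. AN9069, a carbohydrate-active enzyme gene, had 2.54 in conidia and -2.52 in mycelia. AN4699 had 2.41 and -1.68, AN7894 2.24 and -1.24, and *aatA* (AN2623) 1.84 and -2.63, in the same order. AN5312 had 1.69 in conidia and -4.32 in mycelia, and AN8915 had 1.57 and -1.32. AN2201 had 1.08 and -1.79, and AN8903 had 1.07 and -1.81. AN2201, and also AN6419 and AN9186 among the 12 genes, reached 0.5 RPKM in fewer than 3 conidial libraries of the control and those labelled Δ*atfB*. They were thus tested in conidia only with the help of libraries lacking *atfA*. Replicate 3 of the MSB-treated Δ*atfA* conidia, of batch 2, had a sum of 13700 RPKM over the 14 asexual genes against 55800 and 57500 in the other 2 libraries.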

How the results depend on the processing

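The number of chosen genes was 56 with RPKM rescaled by RLE factors (51 shared) and 55 on medians (48 shared), and 46 to 60 without 1 library. Leaving out 1 library gave 28 to 32 genes lower in Δ*atfA* (MSB mycelia), 17 to 24 higher in the double mutant than in Δ*atfA*, 5 to 14 lower in it than in the control, 10 to 22 with the whole pattern, 3 to 9 changed in Δ*atfB* and 31 to 37 changed by MSB in Δ*atfB* (28 to 33 lowered). In conidia it gave 8 to 10 lower and 22 to 23 higher in Δ*atfA* without treatment, and 4 to 5 and 16 to 21 with MSB. The double mutant had 3 to 8 higher and 6 to 9 lower than Δ*atfA* without treatment and 0 to 2 higher with MSB. Against the control it had 7 to 8 lower and 12 to 17 higher without treatment, and 3 to 6 and 17 to 21 with MSB. The libraries labelled Δ*atfB* had 1 to 3 genes changed without treatment and 0 to 1 with MSB, and the interaction was called for 0 to 8.

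DESeq2 called 2 genes higher in the double mutant than in Δ*atfA* in MSB-treated conidia and 1 for the interaction. Batch 1 alone gave 4 and 7 of these, 7 genes changed in untreated conidia labelled Δ*atfB* and 1 with MSB. The cause was not tested, and the shares of all genes under these settings are not given here. Other counts under DESeq2, TMM scaling, no filter and batch 1 alone were within 1.5 times those reported. For 181 results of single genes, each computed under several alternatives, 1780 of the recomputed values stayed on their side of the threshold, 123 kept their direction but missed it, by p or by fold, and 0 changed direction. The counts of higher genes in conidia, of genes lower in the double mutant than in Δ*atfA*, of genes lowered by MSB and of the whole pattern were chosen after seeing the data.

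Deviations of same-numbered libraries from their group means correlated at -0.245 to 0.194 in mycelia and at -0.166 to 0.636 in conidia. Since not every pair was over 0.1, the numbers were not taken to pair the libraries. Some conidial pairs did deviate together, and there replicate 3 is batch 2, which the fit holds as a term. With a replicate block, which in conidia contains the batch, the counts were 32 lower in Δ*atfA*, 22 higher in the double mutant and 18 with the whole pattern in MSB-treated mycelia, and 23 higher in untreated Δ*atfA* conidia. A planned search of promoters was not run. Genes under 1 RPKM rest on few reads and have the widest errors.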
